A study of Mus musculus with 2 samples.

Results

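The cluster that the study's authors named T-Gzm holds cytotoxic lymphocytes of the young mouse liver, cells that carry granzymes, the proteases of killer granules. Members were the cells with that cluster name in the authors' deposited cell annotation, matched by barcode to the count tables, and numbered 662 of 15835 annotated cells. The control library gave 385 of them among 7669 cells and the c-Maf KO library gave 277 among 8166. Both libraries were made by 10x Chromium from liver cells isolated by fluorescence-activated sorting at postnatal day 15, and each pooled 1 male and 1 female mouse. The labels name endothelial and hematopoietic cells from control mice and from mice described as c-Maf KO endothelial cell. The sources used here do not give the allele, the driver of the deletion, the strain or the sorting gates. With 1 library per group the differences had no replicate check. No p-value is given, intervals are at 95% and cover counting error only, and a gene is called higher or lower by size and counting error within these libraries.

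Lymphocytes with cytotoxic granules include natural killer (NK) cells, type 1 innate lymphoid cells (ILC1), and T cells of the CD8, gamma delta and NKT kinds. NK cells and ILC1 lack a rearranged antigen receptor and read target cells through activating and inhibitory receptors. T cells carry the CD3 complex with a rearranged receptor. The liver is known for a resident ILC1 population marked by CXCR6 and CD49a (Itga1) beside circulating NK cells marked by EOMES and CD49b (Itga2).

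Of the 5 genes that mark the cluster, Klrb1c and Ncr1 are among the 4 NK receptor genes used below to sort its cells into kinds, and Klrb1c also had the largest library difference of the 5. Their RefSeq start regions (build GRCm38.p6, 250 bases before to 50 bases after the start) are printed 5′ to 3′ for that reason. Capitals mark matches to TCACAC, a core of T-box sites, and TGTGGT, a core of RUNX sites, on either strand (reverse complements GTGTGA and ACCACA). T-box and RUNX factors are known regulators of NK and T cell genes. The Klrb1c window is chr6:128788592-128788891 on the minus strand and the Ncr1 window is chr7:4337465-4337764 on the plus strand.
Klrb1c: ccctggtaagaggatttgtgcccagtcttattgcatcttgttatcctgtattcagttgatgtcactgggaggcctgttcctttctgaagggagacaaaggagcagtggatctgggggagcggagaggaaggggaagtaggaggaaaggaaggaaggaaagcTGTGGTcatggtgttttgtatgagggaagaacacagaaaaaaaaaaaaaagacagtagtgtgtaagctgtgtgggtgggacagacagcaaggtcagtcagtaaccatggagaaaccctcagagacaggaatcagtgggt
Ncr1: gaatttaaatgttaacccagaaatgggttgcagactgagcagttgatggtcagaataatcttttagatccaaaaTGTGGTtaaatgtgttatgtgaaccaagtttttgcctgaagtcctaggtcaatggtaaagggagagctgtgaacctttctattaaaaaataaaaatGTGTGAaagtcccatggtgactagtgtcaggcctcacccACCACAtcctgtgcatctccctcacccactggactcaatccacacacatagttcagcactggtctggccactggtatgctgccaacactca
The Klrb1c window held 1 RUNX match and 0 T-box matches, and the Ncr1 window held 2 RUNX matches and 1 T-box match. T-box letters occurred in 14.5% and RUNX letters in 16.8% of 32851 such windows. A match describes the letters and does not show a site.

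The markers bore the label out. In control and c-Maf KO cells, Gzma (granzyme A) was at 3881 and 3756 CPM, the count of the gene's UMIs scaled to a common total of the cluster's summed UMIs (a UMI is 1 counted RNA molecule). Nkg7, a protein of cytotoxic granules, was at 2197 and 2119 CPM, and Ccl5, a chemokine stored in such granules, at 12721 and 11815 CPM. Ncr1, the activating NK receptor NKp46, was at 333 and 474 CPM, and Klrb1c, which encodes the NK1.1 receptor, at 63.3 and 186 CPM. In both libraries T-Gzm ranked first for each of the 5 genes among 17 clusters with at least 50 cells in each library. T-Foxp3, another cluster the authors named as T cells, ranked second each time, with Ncr1 at 48.1 and 54.3 CPM. These ranks describe the clustering, which used the same genes. Foxp3, the factor of regulatory T cells, had 0 UMIs in T-Gzm cells of either library.

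Granule genes were spread unevenly over the cells. Nkg7 was seen in 97.1% of T-Gzm cells in the control and 97.5% in the c-Maf KO library, and Ccl5 in 96.6% and 98.9%. Gzma was seen in 66.2% and 60.6% of cells and Gzmb (granzyme B) in 80.3% and 70.8%. The B cell cluster B3, which should lack these genes, showed Gzma in 1.81% and 1.04% of cells and Ccl5 in 5.78% and 2.71%. B3 was shallower, with medians of 4414 and 3612 UMIs per cell against 5743 and 5076 in T-Gzm. The genes whose levels over the 17 clusters of both libraries were most like Gzma by rank (34 points, 11103 genes) were Gzmb with a Spearman correlation of 0.88, Ccl5 with 0.84, Klrd1 (CD94) and Klre1 with 0.82 each, and Cd7 with 0.81. The points share libraries and depth, so these values are a description.

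**Figure D1:**
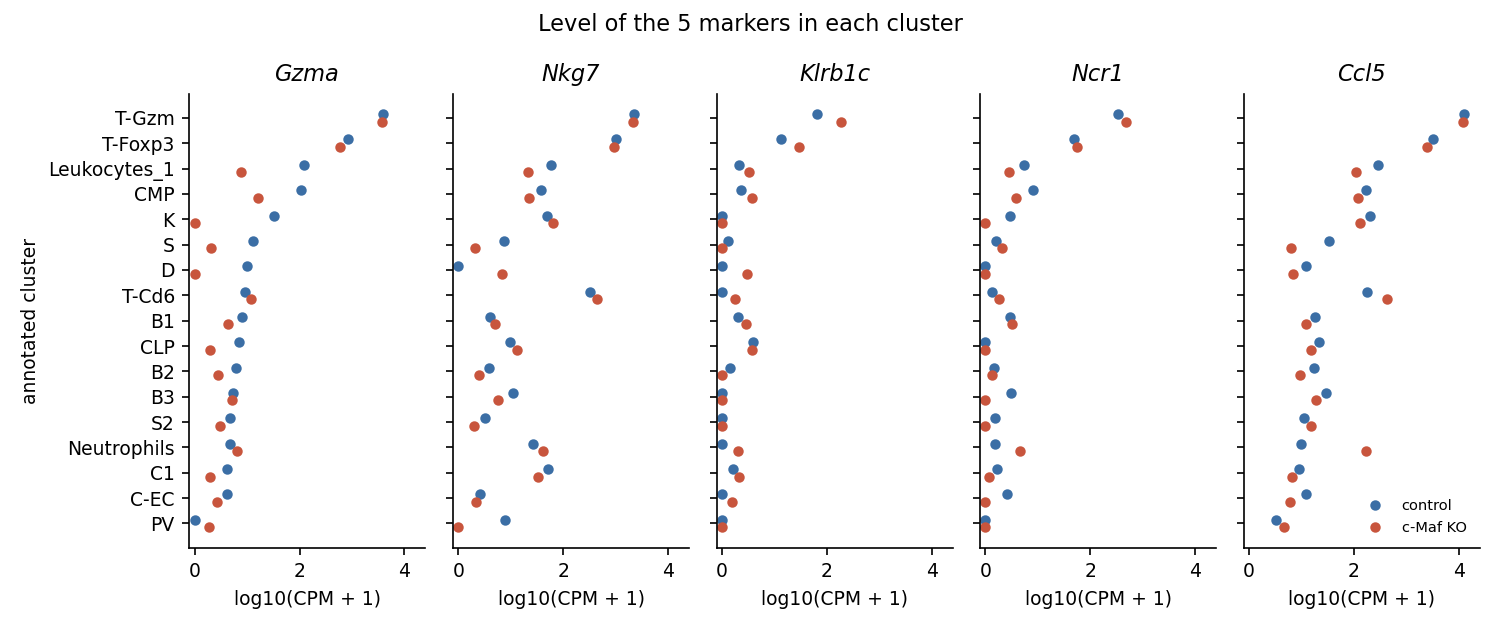
Levels of the 5 marker genes in T-Gzm and other annotated clusters, T-Foxp3, T-Cd6 and B3 among them, in CPM of summed UMIs, on a logarithmic scale with 0 shown, one point per library. T-Gzm lies above the other clusters for each gene, and the library difference within it was largest for Klrb1c, at 63.3 CPM in control and 186 CPM in c-Maf KO cells.

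T-Gzm cells held 2700813 UMIs in the control and 1532226 in the c-Maf KO library, with 4.38% and 3.96% mitochondrial. The libraries shared 21 annotated barcodes, none of them in T-Gzm. Transcripts of other cell types were unequal between the libraries. In the control, 120 T-Gzm cells (31.2%) held at least 2 UMIs of genes that mark B, Kupffer, endothelial, neutrophil or erythroid cells, against 42 (15.2%) in the c-Maf KO library, and the cells that Scrublet scored as doublets (33 and 16) were all among them. Those cells were deeper, with medians of 8480 and 6372 UMIs against 5439 and 4869 in the others. Results below are therefore given with all cells and, as the filtered value, for the 265 control and 235 c-Maf KO cells without such transcripts.

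Maf, the gene named in the genotype, was at 204 CPM in control and 77.0 CPM in c-Maf KO T-Gzm cells, a log2 ratio of -1.40 (interval -1.70 to -1.12). Cells with at least 10 UMIs of a 19-gene endothelial list held 388 of the 551 control Maf UMIs. There were 33 such cells in the control and 4 in the c-Maf KO library, and they held 91.2% and 61.4% of all endothelial UMIs in the cluster. In the remaining cells Maf was at 70.2 and 66.8 CPM, and in the filtered cells at 72.8 and 67.9 CPM with a log2 ratio of -0.10. The Maf level of T-Gzm cells was thus nearly equal between the libraries once the cells with endothelial transcripts were set aside. In T-Foxp3, Maf was at 181 and 174 CPM.

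T-Gzm cells made up 8.37% (interval 7.59 to 9.21) of control hematopoietic cells and 5.45% (4.84 to 6.11) of c-Maf KO hematopoietic cells, counts of 385 of 4599 and 277 of 5085. The share was also lower in the c-Maf KO library when cells were split by the sex of the pooled mouse. Cells in which Xist but not any of 4 Y-linked genes had a UMI are called female-type and the reverse male-type, so each type in a library comes from 1 mouse. Female-type shares were 9.05% and 6.44%, and male-type shares 9.48% and 4.82%. Among the 3 clusters named T by the authors the T-Gzm share was 33.8% and 33.5%. Of the other 2, T-Cd6 had 444 of the 4599 control and 210 of the 5085 c-Maf KO hematopoietic cells, while T-Foxp3 had 310 and 340. Sorting can set such shares, and its part in them was not tested.

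Kinds of cell were told apart by marker UMIs in each cell. A cell with at least 1 UMI of Ncr1, Klrb1c, Klre1 or Klri2 was counted as having an NK receptor, and a cell with at least 2 UMIs of Cd3d, Cd3e or Cd3g as having CD3. Most T-Gzm cells had both, with 276 cells (71.7%, interval 66.9 to 76.1) in the control and 177 (63.9%, 57.9 to 69.6) in the c-Maf KO library. Cells with an NK receptor only numbered 54 (14.0%, 10.7 to 17.9) and 75 (27.1%, 21.9 to 32.7). Cells with CD3 only numbered 51 (13.2%) and 21 (7.58%), and 3 cells in each library had neither. Cells marked as ILC2 come below, and 1 c-Maf KO cell fell in a class not reported here. The NK receptor only share was the higher in the c-Maf KO library in every alternative run. It was 16.5% and 31.1% after thinning each cell to 3551 UMIs, 15.5% and 26.8% in filtered cells, 15.03% and 24.1% in female-type and 17.7% and 33.3% in male-type cells.

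Cells marked as ILC2 were rare. Cells with at least 2 UMIs of ILC2 genes (Il1rl1, Il13, Il5, Il17rb) numbered 1 in the control and 0 in the c-Maf KO library, where 3 counts of 277 cells would be a share of 1.08% and the Clopper-Pearson upper limit is 1.32%. These limit cells with such UMIs, not cells of that kind. Il17a, which encodes interleukin 17A, had 0 UMIs in both libraries. Gata3, a factor of ILC2 that many lymphocytes share, was at 60.0 and 62.7 CPM. Zbtb16, the factor of NKT cells, was at 13.3 and 10.4 CPM and was seen in 7.27% and 5.42% of cells.

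The CD3 transcripts were mostly of Cd3g. In cells with both an NK receptor and CD3, Cd3g was seen in 275 of 276 cells in the control and 174 of 177 in the c-Maf KO library, Cd3e in 122 and 85, and Trac, the T receptor alpha constant gene, in 82 and 63. In cells with CD3 only, Cd3e was seen in 43 of 51 and 19 of 21 cells and Trac in 34 and 11. CD3 UMIs per cell had medians of 14 and 11 in the first kind and 15 and 13 in the second. Transcripts of the CD3 and constant genes do not by themselves show a rearranged receptor. Among cells with an NK receptor only, Trbc2 was seen in 43 of 54 in the control and 54 of 75 in the c-Maf KO library.

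Variable (V) segments gave a second view. A UMI of a gamma or delta V segment was found in 119 control T-Gzm cells (30.9%, interval 26.3 to 35.8) and 55 c-Maf KO cells (19.9%, 15.3 to 25.0). After thinning the shares were 21.3% (17.1 to 26.0) and 15.6% (11.3 to 20.7), with overlapping intervals. Alpha or beta V segments alone were found in 2.34% and 4.33% of T-Gzm cells, against 30.2% and 27.6% in the T-Cd6 cluster. Segments named for both alpha and delta, such as Trav15-1-dv6-1 with 4 UMIs in 3 control cells, were counted here as alpha. No V segment was found in 66.8% and 75.8% of cells. T-Foxp3 also had gamma or delta segments, in 36.5% and 33.2% of cells, but had alpha or beta segments alone in 14.8% and 14.7%. B3 had gamma or delta segments in 0% and 0.209%. The segment seen most was Trgv2, with 125 UMIs in 69 control cells and 56 UMIs in 36 c-Maf KO cells. A V segment UMI can come from an unrearranged gene and does not show a receptor.

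Genes of the NK side and of the ILC1 side divided the cluster in another way. A UMI of Cxcr6, Itga1, Tnfsf10 (TRAIL), Cd200r1, Il7r, Tmem176a or Tmem176b, and none of Eomes, Itga2, Itgam, Klra4, Klra8, S1pr5 or Cma1, was found in 73.2% of cells in the control and 64.6% in the c-Maf KO library. The NK side alone was found in 4.16% (interval 2.39 to 6.66) and 10.8% (7.43 to 15.1), 16 and 30 cells. Both sides were found in 19.5% and 22.4%. Among cells with an NK receptor only, the ILC1 side alone was found in 33 of 54 in the control and 38 of 75 in the c-Maf KO library, and the NK side alone in 9 and 19. Of the genes taken singly, after thinning each cell as above, Itga1 was in 56.8% and 41.4% of cells, Cxcr6 in 52.6% and 40.6%, and Eomes in 3.69% and 10.2%. Unthinned, Itga1 was in 71.2% and 53.4%, Cxcr6 in 67.3% and 43.3%, and Eomes in 6.75% and 13.4%.

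**Figure D2:**
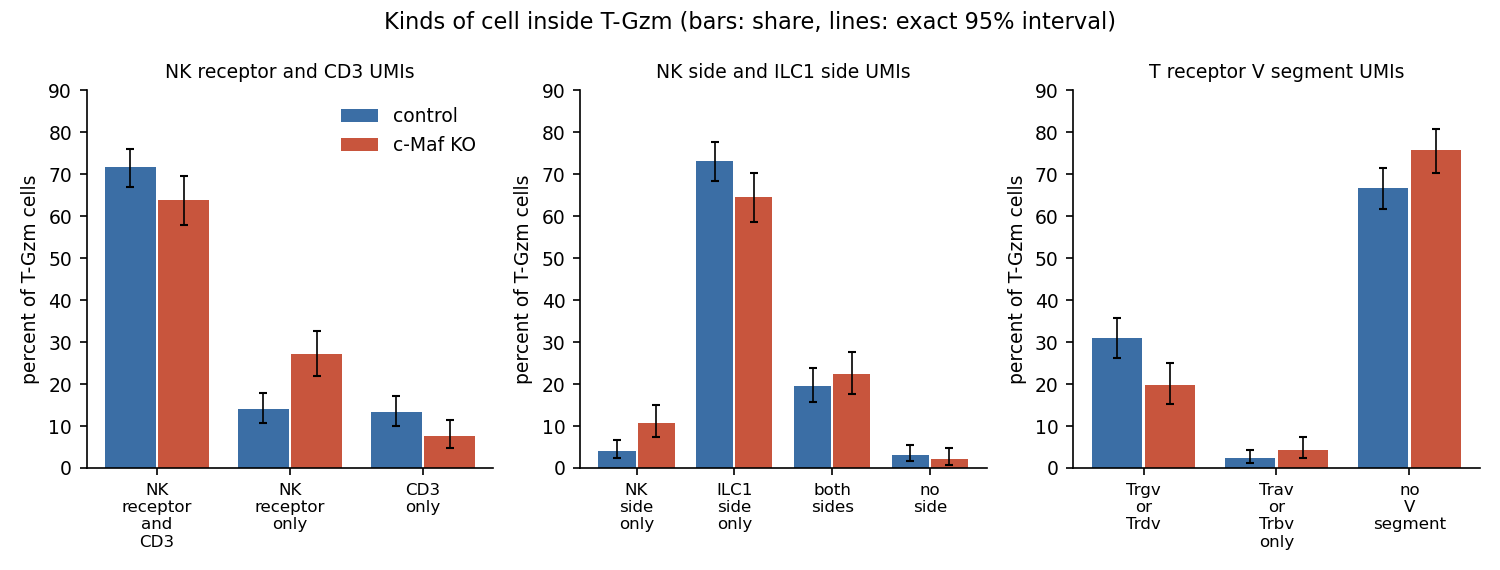
Shares of T-Gzm cells in each library, in percent with 95% binomial intervals, by NK receptor and CD3 UMIs, by genes of the NK and ILC1 sides, and by V segment UMIs. The c-Maf KO library has the larger share of cells with an NK receptor only (27.1% against 14.0%) and of NK side cells (10.8% against 4.16%), and the smaller share with gamma or delta V segments (19.9% against 30.9%). After thinning, the gamma or delta shares were 15.6% against 21.3%, with overlapping intervals.

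The kinds differed in genes outside the sorting markers. These genes were ranked within the same cells, so they describe the kinds and carry no test. Cells with an NK receptor only led in Il18r1, a receptor chain for interleukin 18, at 148 and 179 CPM against 12.6 and 16.0 CPM in the other cells of the control and c-Maf KO library. Emb (embigin) was at 212 and 262 CPM against 47.3 and 75.6, and Anxa1, Ramp1, Arl4d, Il18rap, Sh2d1a, Cd9 and Satb1 were also among the leading genes. Cells with both an NK receptor and CD3 led in Siglecg, AA467197, Ccl1, Klra5, Fcrla, H2-Aa, Gzmb, Epcam, St7l and Sult2b1. In those cells Gzmb stood at 2584 and 1830 CPM and Klra5, an inhibitory-type lectin receptor of the Ly49 family, at 468 and 379 CPM. Siglecg, Fcrla and H2-Aa are also genes of B cells, and Siglecg was at 0.633 and 0.809 CPM in filtered cells against 17.8 and 20.9 CPM in all T-Gzm cells.

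Genes that led in cells with the NK side alone included Klra3, Klf2, Emb, Cd2, Ms4a4b, Ccr2, Serpinb6b, Ctla2a and Gzma. Their Gzma level was 8084 and 9652 CPM against 3742 and 3127 CPM in the other cells. KLF2 is a transcription factor known for its role in lymphocyte traffic through blood and lymph nodes. Cells with the ILC1 side alone led in Ccl1 and Gzmc (granzyme C), the latter at 535 and 773 CPM against 104 and 130, and in Ramp1 and Ahcyl2. The other 6 of the 10 leading genes, Ifitm1, Grn, Csrnp1, Cdca7, Mrpl49 and Stx11, had intervals that reached equality in at least 1 library. Cells with a gamma or delta segment led in Cd8a, at 433 and 385 CPM against 105 and 63.2, and in Ikzf2 (Helios), Klra1, Bspry, Klra7, Cd160, Map4k1, Tesc and Nr4a2. The tenth, Mrps25, had an interval that reached equality in the c-Maf KO library. Cd8b1, the partner chain of CD8 on conventional cytotoxic T cells, was at 12.2 and 6.53 CPM in the whole cluster.

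Sums over T-Gzm cells were then compared between the libraries. A gene was called when the ratio was at least 1.5-fold, its counting interval left out equality and the sums held at least 50 UMIs together. Of 7226 genes tested, 124 (1.72%) were called higher and 418 (5.78%) lower in the c-Maf KO library. In filtered cells, 104 of 5768 (1.80%) were called higher and 115 (1.99%) lower. These shares are the background for every count of called list members below. List members were not held to 50 UMIs, so some could not be called. Of the 124, 50 were also called higher in filtered cells, 39 were not and 35 fell under 50 UMIs. Of the 418, 61 were also called lower, 101 were not and 256 fell under 50 UMIs. A sum can differ through the mix of kinds or through levels within a kind, so values within kinds are given where they bear on it.

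**Figure D3:**
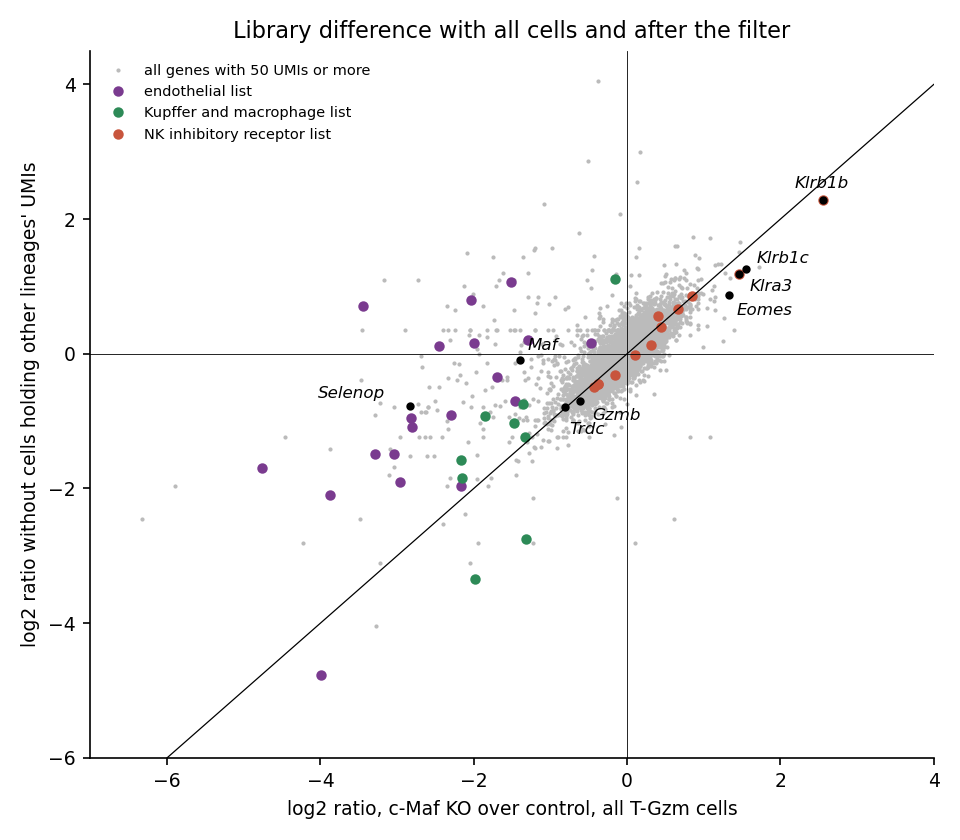
Log2 ratio of the c-Maf KO sum to the control sum for each gene with at least 50 UMIs, with all T-Gzm cells (horizontal) and in filtered cells (vertical), the line marking equal values. Endothelial and Kupffer genes lie low on the horizontal axis and scatter vertically on few UMIs, Maf moves from -1.40 to -0.10, and Klrb1b, Klrb1c, Klra3, Gzmb and Trdc lie near the line.

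The 12 largest higher ratios among genes with at least 100 UMIs, outside the left-out groups, were of Klrb1c, Klra3, Eomes, Sox4, Gramd3, Arl5c, Il18r1, Pafah1b3, Ccr2, Zfp945, Anxa1 and Il18rap. Of these, Klrb1c, Klra3, Eomes, Gramd3, Il18r1, Zfp945 and Il18rap were called in filtered cells too. Sox4 was at 22.2 and 54.2 CPM with all cells and at 1.27 and 3.23 CPM in filtered cells. The 12 largest lower ratios were of Dab2, Flt4, Ctsl, Fcgrt, Adam23, Tspan7, Il6st, Ednrb, Selenop, Slco2a1, Clec14a and Stab1. Stab1, Flt4, Clec14a and Ednrb are known genes of vascular endothelium. Selenop, a selenium carrier, was called in filtered cells as well, at 62.7 and 36.4 CPM, against 561 and 78.3 CPM with all cells.

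Some NK receptors were called higher. Of 22 measured genes listed here as inhibitory receptors, 4 were called higher, 0 were lower and 18 fell under neither call. Of all genes tested, each with at least 50 UMIs, 1.72% were called higher. The 22 include genes under that minimum, such as Klra4 and Klra9, which could not be called. The median log2 ratio was 0.42 over members with at least 20 UMIs, against -0.04 over all genes. Filtered cells gave 4 higher, 0 lower and a median of 0.62. Klrb1b, which encodes an inhibitory NKR-P1 receptor, was at 7.41 CPM in control and 44.4 CPM in c-Maf KO cells, a log2 ratio of 2.56 (interval 1.85 to 3.38) and 2.28 in filtered cells. Klra3 (Ly49C) was at 33.0 and 90.7 CPM with a log2 ratio of 1.46 (1.07 to 1.86) and 1.18 filtered. Klra7 (Ly49G) was at 82.9 and 149 CPM (0.85, 0.58 to 1.12) and Klri2 at 50.4 and 79.6 CPM (0.66, 0.30 to 1.02). Transcripts do not show whether the receptor of Klri2 inhibits or activates, so its place on this list is uncertain. Klrc1 (NKG2A), by contrast, was at 190 and 170 CPM and Klra5 at 382 and 292 CPM, neither of them called. The Klra genes are near-identical copies, so counting may have split their reads and their values are uncertain.

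Of 22 activating receptor and adaptor genes, Klrb1c, Cd2 and Sh2d1b1 were called higher, 0 were lower and 19 neither. The list median was 0.17, and 1.72% of all genes tested were called higher. In filtered cells Sh2d1b1 was not called, 2 were higher and 0 lower, and the median was 0.03. The Klrb1c log2 ratio was 1.55 (interval 1.28 to 1.84) and 1.26 in filtered cells, and Klrb1c was seen in 27.0% of cells in the control and 51.6% in the c-Maf KO library (19.3% and 43.4% thinned, 0% in B3). Ncr1 had a log2 ratio of 0.51 (0.37 to 0.65) and 0.23 filtered and was not called. Cd2, an adhesion receptor, was at 106 and 178 CPM and was called with all cells and in filtered cells. Broadly used receptor parts were close to equal. Klrd1 was at 882 and 948 CPM, Klrk1 (NKG2D) at 528 and 597, Tyrobp (DAP12) at 2186 and 2346 and Fcer1g at 1993 and 1985.

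Within kinds, Klrb1c was called higher both in cells with an NK receptor and CD3, at 52.9 and 151 CPM, and in cells with an NK receptor only, at 209 and 316 CPM. Klrb1c is itself one of the genes that define these kinds. Klra3, which is not, was called higher in both as well, at 29.9 and 74.1 CPM and at 61.0 and 147 CPM. By side, Klrb1c was at 52.9 and 188 CPM in cells of the ILC1 side alone and at 265 and 278 CPM in the 16 and 30 cells of the NK side alone, where it was not called. Klrb1b was at 6.80 and 49.8 CPM in cells of the ILC1 side alone. Klra3 was called on neither side alone, at 24.1 and 34.2 CPM on the ILC1 side (log2 ratio 0.51, interval -0.18 to 1.18) and 254 and 399 CPM on the NK side (0.63, -0.07 to 1.43). It was called higher in cells of both sides, at 32.4 and 103 CPM. In cells with a gamma or delta segment Klra3 was at 25.1 and 19.1 CPM (-0.31, -1.98 to 0.94), on 23 and 6 UMIs, too few for a call.

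The Klrb1, Klrd1, Klrk1, Klrc and Klra genes lie together in the NK gene complex on chromosome 6, taken here from position 128609227 to 131247362 of build mm10. Of its 28 genes with at least 20 UMIs, 6 were called higher and 1 lower. For comparison, 1.72% of all genes tested, each with at least 50 UMIs, were called higher and 5.78% lower. The 28 include genes under the minimum of 50 UMIs, such as Klra4 and Klra9, which could not be called. Klrb1c lies at chr6:128778485-128789215, Klrb1b at chr6:128813706-128826331, Klra7 at chr6:130218605-130233322 and Klra3 at chr6:130323289-130337574. Of the 18 Klr genes, 5 were called higher and 16 had a ratio above 0, with a median log2 ratio of 0.42 and 0.46 in filtered cells. The 10 other genes had a median of -0.19, among them Cd69 at 368 and 399 CPM, Clec2d at 239 and 220 CPM, and Clec2i, called higher at 22.6 and 38.5 CPM. Clec1b, an endothelial and platelet gene in the same stretch, was called lower at 27.8 and 3.26 CPM and not in filtered cells. Gene content and alleles of this complex differ between mouse strains. The sources used here do not give the strains of the pooled mice, and their part in these values was not tested.

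**Figure D4:**
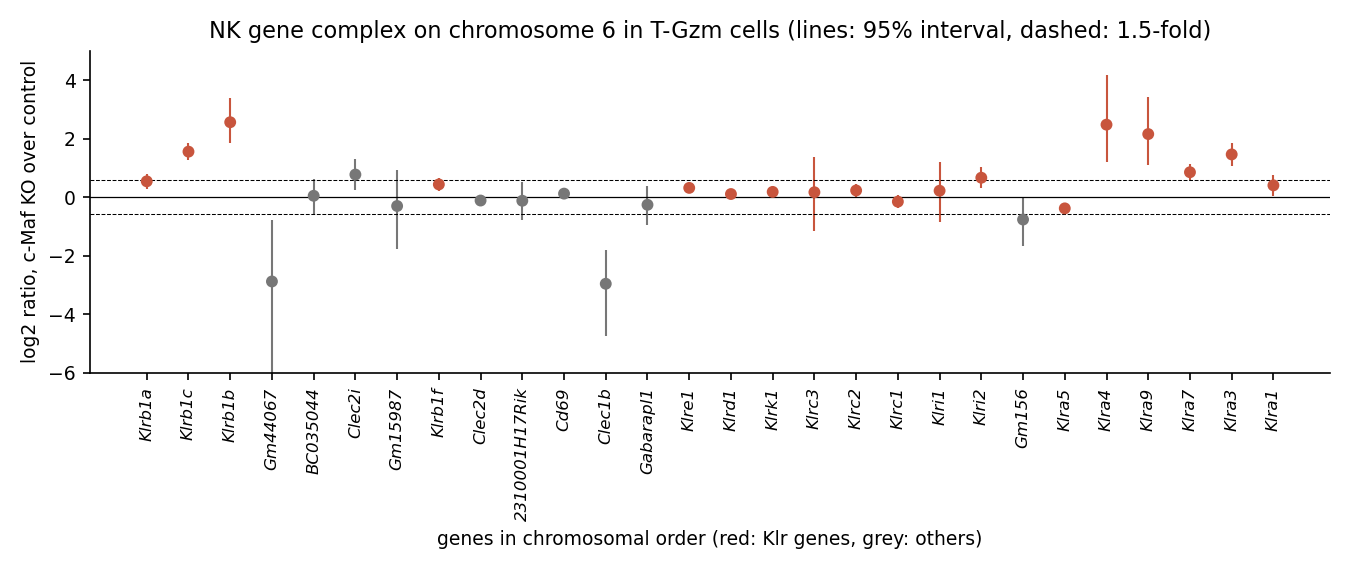
Log2 ratio of the c-Maf KO sum to the control sum, with 95% counting intervals, for the 28 genes of the NK gene complex with at least 20 UMIs, in their order along the chromosome. Of the 18 Klr genes 16 lie above 0, with Klrb1b the highest called gene at 2.56, and the 10 other genes have a median of -0.19.

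Cytotoxic granule genes were mostly close to equal. Of 17 measured, Serpinb9, an inhibitor of granzyme B, was called higher at 41.5 and 70.5 CPM, Gzmb and Lamp1 were called lower and 14 were neither. The median log2 ratio was -0.05, against -0.04 over all genes, and 1.72% of all genes tested were called higher and 5.78% lower. Gzmb was at 2139 and 1394 CPM, a log2 ratio of -0.62 (interval -0.69 to -0.55), and -0.70 in filtered cells, where Lamp1 and Serpinb9 were not called. Lamp1, a lysosome membrane protein, was at 134 and 69.2 CPM with all cells and at 60.8 and 59.0 CPM filtered. After thinning, Gzmb was seen in 79.5% of cells in the control and 66.4% in the c-Maf KO library. Perforin (Prf1), the pore protein, was at 101 and 140 CPM, and Gzma at 3881 and 3756, neither of them called.

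Gzmb was called lower in cells with an NK receptor only, at 571 and 257 CPM, and in cells without a V segment, at 2016 and 1120 CPM. In cells with a gamma or delta segment it was at 2454 and 2373 CPM, a log2 ratio of -0.05 (interval -0.17 to 0.07). In cells with an NK receptor and CD3 it was at 2584 and 1830 CPM and was not called, with a log2 ratio of -0.50. In the 51 and 21 cells with CD3 only it went the other way, at 1162 and 1736 CPM (0.58, 0.30 to 0.85), just short of a call. That rise was not particular to Gzmb. Gzma, Ccl5, Nkg7, Xcl1, Klra5 and Klra7 were called higher in those cells too, and Gzmc lower. Maf was at 711 and 34.5 CPM there. Values within kinds are of all cells, so cells with endothelial transcripts are among them, and their part was not tested. Whether the kinds differ in Gzmb was not tested. Prf1 was called higher in cells with an NK receptor only, at 135 and 235 CPM.

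Cytokine transcripts gave no call. Of 19 genes measured, 0 were called higher and 0 lower, and Ifng (interferon gamma) was at 177 and 187 CPM. Of 9 chemokines, Cxcl10 was called lower at 43.0 and 21.5 CPM and 8 were neither. One control cell held 52 of the 116 control Cxcl10 UMIs, and the mice did not share this difference, as given below. The main chemokines of the cluster, Ccl5, Ccl4 at 1191 and 983 CPM, Xcl1 at 1727 and 1529 and Ccl3 at 650 and 551, were not called.

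Of 26 cytokine receptor genes 3 were called higher (1.72% of all genes tested were), with 0 lower and a median of 0.06. Il18r1 was at 28.1 and 59.4 CPM (log2 ratio 1.08, interval 0.62 to 1.54), its partner chain Il18rap at 44.4 and 84.2 CPM (0.92, 0.55 to 1.29) and Ifngr1, a chain of the interferon gamma receptor, at 191 and 302 CPM (0.66, 0.48 to 0.85). These calls also held in filtered cells. They were present in some classes of cell and not in others. In cells with an NK receptor only, Il18r1 was at 148 and 179 CPM, Il18rap at 167 and 167 and Ifngr1 at 465 and 515, and none was called. In cells with both an NK receptor and CD3, Il18r1 was at 11.5 and 17.6 CPM, on 23 and 18 UMIs, too few for a call. Il18rap was called higher there at 30.9 and 56.6 CPM. In cells without a V segment all 3 were called higher, Il18r1 at 29.2 and 78.9 CPM, Il18rap at 52.5 and 102 and Ifngr1 at 199 and 335. In cells with a gamma or delta segment Ifngr1 was not called, and Il18r1 and Il18rap held too few UMIs for a call. Il18r1 had 25 and 0 UMIs there (log2 ratio -4.13, upper limit -1.11), opposite in direction to the cluster sum, and Il18rap had 28 and 7. By side, the calls were Il18r1 on the NK side alone, Il18rap on the ILC1 side alone and Ifngr1 in cells of both sides. Some sums by side were too small for a call, such as Il18r1 in cells of both sides, on 22 and 26 UMIs. Il2rb, the shared chain for interleukins 2 and 15, was close to equal at 845 and 887 CPM.

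Among homing receptors, Ccr2, at 78.5 and 149 CPM, and Itga2, at 25.2 and 37.9 CPM, were called higher with all cells. Neither was called in filtered cells, where Ccr2 was at 104 and 140 CPM. Cxcr6, the receptor of liver-resident lymphocytes, was at 243 and 174 CPM (log2 ratio -0.48, interval -0.69 to -0.27) and was not called.

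Among 37 lymphocyte transcription factors, Eomes, Rora and Bach2 were called higher and Id3, Zfp683 and Maf lower, with a median of 0.05. Of all genes tested, 1.72% were called higher and 5.78% lower. In filtered cells Eomes and Tcf7 were called higher, 0 were lower, and Rora (0.46) and Bach2 (0.90) were not called. Eomes, the T-box factor of NK cells, was at 17.4 and 43.7 CPM, a log2 ratio of 1.32 (interval 0.77 to 1.90) and 0.88 in filtered cells. It was also called higher in cells with an NK receptor only, at 54.5 and 108 CPM. Tbx21 (T-bet), the T-box factor that NK cells and ILC1 share, was at 94.0 and 99.9 CPM and Id2 at 787 and 815 CPM, neither called. From the T lineage list, Lef1 was called higher with all cells and filtered, at 25.9 and 39.8 CPM with all cells. Zfp683 (Hobit), a factor of tissue-resident lymphocytes, was called lower at 17.8 and 9.14 CPM. In filtered cells it was at 20.3 and 10.5 CPM, with too few UMIs for a call. Hic1, on the ILC1 list, was called lower with all cells and filtered, at 28.5 and 12.4 CPM with all cells. Id3 was called lower at 104 and 39.2 CPM, and was at 27.2 and 27.5 CPM in filtered cells.

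Lineage lists drew on the same genes. The NK list of 15 had Eomes and Itga2 higher and Gzmb lower, with a median of 0.44, and the ILC1 list of 15 had Rora higher, Zfp683 and Hic1 lower, and a median of 0.10. In filtered cells the NK list had Eomes higher and Gzmb lower, and the ILC1 list had 0 higher and 1 lower. The ILC2 list of 16 had Arg1 higher (not called in filtered cells), the NKT list of 11 had Klrb1c higher, and the regulatory T list of 10 had 0 calls. With all cells the background was 1.72% of tested genes called higher and 5.78% lower. The NK and ILC1 lists share members with the genes that sorted cells to a side.

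T cell receptor constant genes were lower on the gamma delta side. Of 11 genes of the CD3 complex and the constant regions, 0 were called higher and 3 lower, with a median of -0.28. Of all genes tested, 5.78% were called lower (1.99% in filtered cells), and the median over all genes was -0.04. Trdc was at 215 and 122 CPM (log2 ratio -0.81, interval -1.06 to -0.58), Tcrg-C1 at 127 and 63.3 CPM (-0.999, -1.34 to -0.68) and Tcrg-C2 at 133 and 87.5 CPM (-0.60, -0.91 to -0.32). Filtered cells gave Trdc -0.79 and Tcrg-C1 -0.88 as calls and Tcrg-C2 -0.48 without one. Trac, at 187 and 163 CPM, and Trbc2, at 1198 and 1183 CPM, were close to equal. Cd3g was at 1290 and 933 CPM (log2 ratio -0.47, -0.56 to -0.38) and was not called, and was seen in 84.4% and 73.4% of thinned cells.

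Within cells that had a gamma or delta segment, Trdc was at 453 and 385 CPM and Cd8a at 433 and 385 CPM, and neither was called. Tcrg-C1 was called lower there too, at 246 and 159 CPM (log2 ratio -0.62, interval -1.10 to -0.18). The T lineage list of 20 had 2 genes higher and 1 lower, with a median of -0.14, and 3 higher and 1 lower in filtered cells. The lower gene, Cd8a, was at 216 and 129 CPM with a log2 ratio of -0.74 (interval -0.98 to -0.51), and -0.59 in filtered cells. Cd28, the costimulatory receptor, was called higher at 31.8 and 57.4 CPM, a difference that the mice did not share, as given below. Cd4 had 15 and 2 UMIs.

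Interferon-stimulated genes had a lower median with all cells that was smaller in filtered ones. Of 28 measured, 0 were called higher and 4 lower, with a median of -0.38, and Iigp1, Slfn5, Slfn1 and Bst2 were those called. Of all genes tested, 1.72% were called higher and 5.78% lower, and the median over all genes was -0.04. In filtered cells 0 were called in either direction and the median was -0.11. Bst2 was at 119 and 74.4 CPM with all cells and 89.9 and 62.3 CPM filtered. Outside that list, Ifitm3 was called lower both ways, at 158 and 40.5 CPM and, filtered, at 46.8 and 16.2 CPM. In T-Foxp3 Ifitm3 was called higher, at 46.4 and 76.7 CPM.

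Stress and cycle genes gave few calls. The heat shock gene Hspa1b was called lower at 202 and 101 CPM, a log2 ratio of -0.996 (interval -1.27 to -0.74) and -1.13 in filtered cells, alone among 13 heat shock genes measured. Of 25 immediate-early genes 0 were called. Of 27 S phase genes Pola1 was called lower and of 29 G2 and M phase genes Tubb4b, with 0 higher in either list. Neither was called in filtered cells, where Cks1b, a cyclin-dependent kinase partner, was the sole call of these lists, higher with a log2 ratio of 0.76. Mki67 or Top2a was seen in 17.9% and 17.6% of thinned cells. Of 16 glycolysis and 16 class I presentation genes 0 were called, and of 18 death and checkpoint genes Fas, the death receptor, was called lower at 22.6 and 12.4 CPM, and not in filtered cells (-0.32).

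Many genes of the endothelial and Kupffer cell lists were called lower with all cells, and none of either list in filtered ones. Of 19 endothelial genes, 18 were called lower with all cells, with a median log2 ratio of -2.46, and their summed level was 2261 CPM in control and 416 CPM in c-Maf KO T-Gzm cells. In filtered cells the summed level was 205 and 143 CPM and 0 were called. Clec4g, a lectin of sinusoidal endothelium, was at 186 and 6.53 CPM with all cells and 8.86 and 2.43 CPM filtered. Of 15 Kupffer cell genes 8 were called lower, with summed levels of 347 and 128 CPM and, filtered, 70.2 and 41.2 CPM. Of 15 dendritic cell and monocyte genes 5, among them H2-Aa and Cst3, were called lower and Ccr2 higher. Of 15 B cell genes 3 were called higher and 2 lower, with summed levels of 1675 and 1568 CPM and, filtered, 340 and 377 CPM. For these lists too, the background with all cells was 1.72% of tested genes called higher and 5.78% lower. The filter uses members of these lists, so their filtered values are low by construction. None of the 19 endothelial, 15 Kupffer or 15 B cell genes was at 0 in either library with all cells. The part of these transcripts in the other differences was not tested beyond the filtered values.

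The pooled mice allowed a check on which differences both shared. In the control 153 T-Gzm cells were female-type and 113 male-type, and in the c-Maf KO library 162 and 54, with 14 and 9 cells of both types and 105 and 52 of none. Over the 7226 genes, both c-Maf KO types lay above both control types for 1094 (15.1%) and below for 1554 (21.5%). Among genes called with all cells and in filtered cells, outside the left-out groups, 39 of 45 higher genes and 52 of 59 lower genes lay apart in that way. Those genes were chosen on the sums of the same cells, so the counts are a description. Each type in a library is 1 mouse, and 2 mice a group show no more than that these 4 did or did not overlap.

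Klrb1c was at 61.1 CPM in female-type and 74.5 in male-type control cells and at 120 and 302 CPM in the c-Maf KO cells. Klrb1b was at 7.18 and 3.66 CPM in the control and at 18.2 and 93.3 CPM in the c-Maf KO library. Both genes were highest in the male c-Maf KO mouse and did not overlap between the libraries. Klra3 was at 53.9 and 23.2 against 103 and 77.2 CPM, and Klra7 at 77.2 and 74.5 against 138 and 174 CPM. Eomes was at 24.2 and 8.55 against 36.3 and 54.7 CPM. These 3 did not overlap either, with the nearest pair, 24.2 and 36.3 CPM, in Eomes.

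Gzmb was at 1837 and 2248 CPM in female-type and male-type control cells and at 1587 and 1226 CPM in c-Maf KO cells. Cd8a was at 223 and 189 against 144 and 83.6 CPM. Both were lower in each c-Maf KO mouse than in each control mouse. Trdc was at 136 and 298 against 115 and 135 CPM, so that the male control mouse stood apart and the other 3 values lay close together. Gzma was at 3694 and 4054 against 3566 and 4391 CPM and overlapped.

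**Figure D5:**
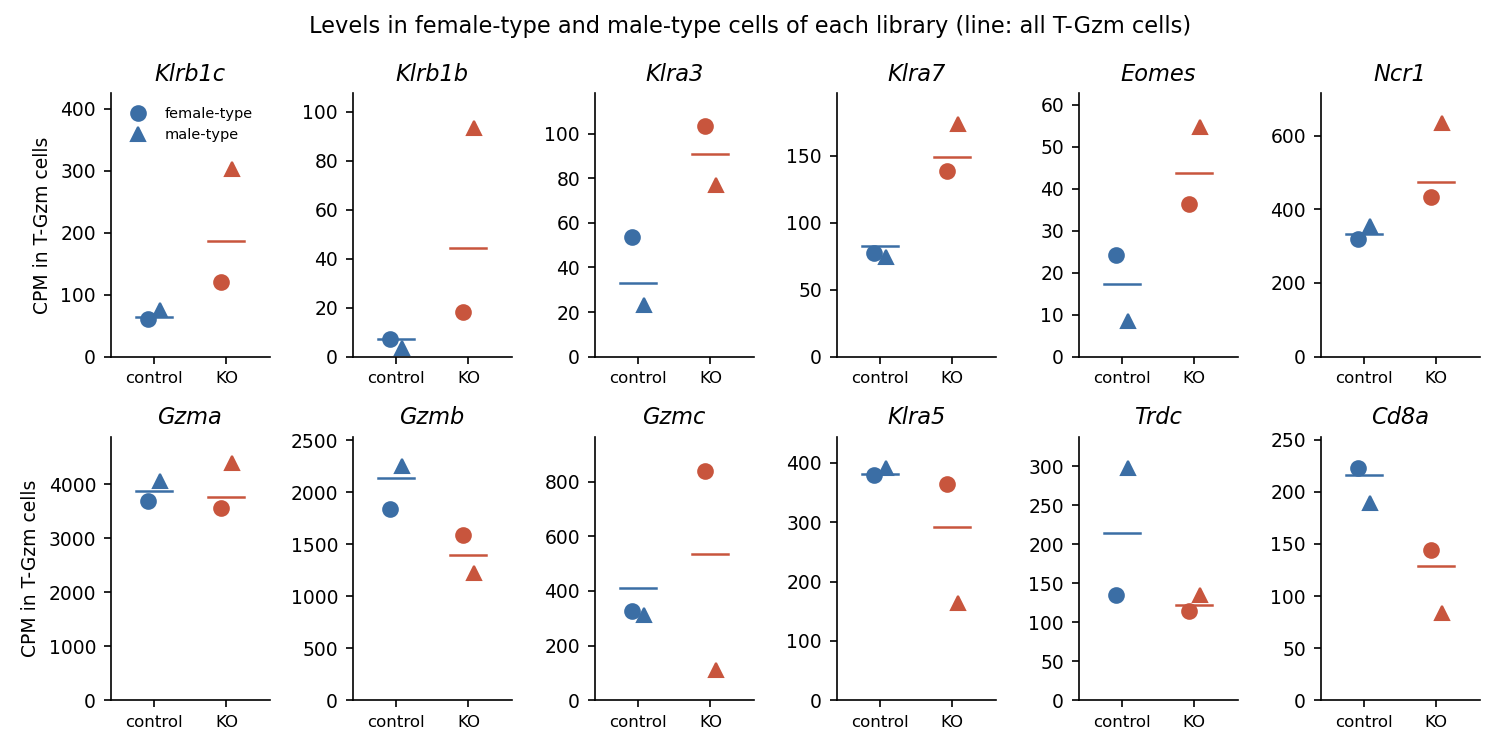
Levels in CPM for 12 genes in female-type (circles) and male-type (triangles) T-Gzm cells of each library, with a line for all T-Gzm cells of that library, each vertical axis starting at 0. Klrb1c, Klrb1b, Klra3, Klra7, Eomes, Gzmb and Cd8a do not overlap between the libraries, while Gzmc ranges from 109 to 839 CPM between the 2 c-Maf KO mice.

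Set beside the other 2 T clusters, Eomes was called higher in each, at 12.8 and 47.5 CPM in T-Cd6 and 6.63 and 24.0 CPM in T-Foxp3. Hspa1b was called lower in each, at 98.9 and 59.0 CPM and at 166 and 54.7 CPM. Klrb1c was called higher in T-Foxp3, at 12.4 and 28.1 CPM, and had 0 and 1 UMIs in T-Cd6. Klrb1b had 2 and 8 UMIs in T-Foxp3 and 0 in T-Cd6. Klra3 was at 17.8 and 13.5 CPM in T-Foxp3 and Gzmb at 402 and 288 CPM, neither called. Ccl5, near equal in T-Gzm, was called higher in T-Cd6 at 176 and 430 CPM. The clusters come from the same 2 libraries, and whether their differences differ from one another was not tested.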

How the data were processed

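Each library's table holds UMI counts per gene and cell, deposited by the authors with their cell annotation. The submitters' processing notes name Cell Ranger 4.0.0, Seurat 3.2.3, FastQC 0.11.3 and build mm10. No column of the tables was left unmapped. UMIs were summed over T-Gzm cells per library (Python 3.11.15, numpy 2.4.6, scipy 1.17.1, pandas 2.3.3) and scaled to CPM. Log2 ratios have 0.5 UMI added to each sum and exact conditional binomial intervals. Levels have Poisson and shares Clopper-Pearson intervals. The calling step was tested on simulated counts. Scrublet (scanpy 1.11.5) used a score limit of 0.25 in each library, chosen after seeing the scores because its own limit failed in the control, and marked 2.18% of cells in the control and 2.33% in the c-Maf KO library. Named genes were the 5 markers, Maf, the 12 highest and 12 lowest ratios among called genes with at least 100 UMIs, up to 3 members per list and direction, and the first 10 genes of each kind. That rule left out Xist, Tsix, Y-linked, mitochondrial, ribosomal protein, hemoglobin, immunoglobulin and predicted genes and genes on the lists for cells outside the lymphocytes. Genes outside that rule, such as Klri2 and Ifitm3, were chosen after their values were seen. The members, the lists and the tests were chosen with earlier results of these data known. The closing section gives the alternatives tried. Figures were drawn with matplotlib 3.10.9. Some named genes, and the counts that rest on them, are not reported here.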

Additional observations from a re-analysis of the deposited data

Results flagged for a closer look

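Opposite directions in the female-type and male-type cells of the libraries drew attention to 4 genes, and these differences were not tested. The log2 ratio of Cd28, c-Maf KO against control, was -0.84 for female-type T-Gzm cells and 2.08 for male-type ones. Nr4a2, an immediate-early nuclear receptor, had -1.44 and 1.74. Ccl3 had -0.96 and 0.61, and Gzmc had 1.36 and -1.49. Gzmc was at 327 and 310 CPM in the female-type and male-type control cells and at 839 and 109 CPM in the c-Maf KO cells.

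Opposite directions in T-Gzm and in T-Foxp3 marked further genes, also without a test of the difference. Cxcl10, an interferon-induced chemokine, had a log2 ratio of -0.98 in T-Gzm and 1.36 in T-Foxp3. The T-Gzm direction was not shared by the mice. Female-type and male-type cells were at 61.1 and 1.22 CPM in the control and at 4.54 and 80.4 CPM in the c-Maf KO library. A single control cell held many of the Cxcl10 UMIs, as given above. Iigp1, an interferon-induced GTPase, had -4.23 and 1.59, on 49 and 1 UMIs in T-Gzm cells. In filtered T-Gzm cells it had -2.82 and was not called. Ifitm3 had -1.96 and 0.72, called in both clusters, and -1.51 in filtered T-Gzm cells, also called.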

How the results depend on the processing

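No paired analysis was possible because each group has 1 library, and no replicate could be left out. The T-Gzm share was the lower in c-Maf KO under every setting tried. It was 5.02% and 3.39% of all annotated cells, 11.5% and 8.79% of cells at or above the depth limit, 9.48% and 4.82% among male-type cells, and 6.44% among female-type c-Maf KO cells. The share with an NK receptor only became 9.09% and 19.9% with a CD3 limit of 1 UMI, and 33.3% in male-type c-Maf KO cells. The 124 genes called higher became 26 at 2-fold, 60 in cells with an NK receptor only and 251 when each cell weighed the same, a count made without intervals. The 418 called lower became 628 with a minimum of 20 UMIs, 229 at 2-fold, 191 in thinned cells, 115 without cells holding transcripts of other lineages, 60 in cells with an NK receptor only, 164 in male-type cells and 167 without cells with at least 10 endothelial UMIs, a setting added after seeing the data. Fewer cells and UMIs enter the restricted settings. Beyond that the cause was not tested.

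Some named genes changed direction. In cells with an NK receptor only, log2 ratios were Apoe 0.10, Arl5c -0.076, Ccr2 -0.086, Cd74 1.97, Clec14a 0.75, Flt4 1.73, H2-Aa 0.53, H2-Eb1 1.38, Hic1 0.35, Il18rap -0.0053, Lamp1 0.088 and Slco2a1 1.196, and the medians of the hepatocyte and endothelial lists were 0.10 and 1.66. In female-type cells they were Arg1 -0.54, Cd28 -0.84, Cd5l 0.21, H2-Aa 0.23, Rora -0.22 and Slfn1 0.45, and in male-type cells Bach2 -0.10, Cxcl10 5.49 and Zfp945 -0.25. Without cells holding transcripts of other lineages they were Cd74 0.17, Ednrb 0.35, H2-Eb1 0.21, Id3 0.019 and Vpreb1 -1.23, and without cells with at least 10 endothelial UMIs Clec14a 0.29 and Ednrb 0.45. The cause was not tested. Of 72 named genes called, 68 kept their call without the cell richest in each gene, 57 without cycling cells, 43 in thinned cells and 22 without cells holding transcripts of other lineages. At 2-fold 38 kept it. In female-type cells 32 kept it and 6 reversed, in male-type cells 32 and 3, and in cells with an NK receptor only 10 and 12. Depth limits the rarer kinds most, since the 21 c-Maf KO cells with CD3 only and the 16 control cells of the NK side alone give wide intervals.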
